A study of Mus musculus with 2 samples.

Results

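The genes described here are 40 receptor chains of mouse cytokines and of the TGF-beta superfamily, out of 21755 protein-coding genes on chromosomes 1 to 19 and X. They were taken by name as 9 families, from the interleukin 1 receptors to the TGF-beta superfamily receptors. Their chromatin accessibility was read by single-cell ATAC-seq (scATAC-seq), in which a transposase cuts open DNA and each sequenced fragment carries the barcode of its nucleus. The nuclei came from hematopoietic stem cells (HSCs) of C57BL/6 mouse bone marrow, sorted as cells with Sca-1, c-kit and CD150 and without lineage markers, CD34, CD48, Flt3 and, as the labels write it, IL-7. One library was made from 10-week-old mice (young HSCs) and 1 from 20-month-old mice (aged HSCs), with no other treatment named. How many mice entered each library is not given in the sources used here.

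Cytokine receptors sit in the membrane and pass the signal of a ligand to kinases inside the cell. Most interleukin, interferon and colony stimulating factor receptors are paired chains without an enzyme of their own that rely on JAK kinases and STAT factors, while interleukin 1 and TNF receptors lead to NF-kB through adaptors and TGF-beta receptors are themselves kinases that phosphorylate SMAD proteins. In bone marrow these signals set the pace of HSC division, bias the output of blood lineages and call HSCs into cycle during infection.

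Each age was represented by 1 library, so the variation from mouse to mouse is not known. No test between ages was made, and every interval of a gene, bin, peak, sum or share is a 95% interval that covers counting error only. After filtering, 4887 young and 3405 aged HSCs were kept, with a median of 9888 and 11019 fragments per cell, and 34448186 young and 25973122 aged fragments lay in peaks called on these cells. Levels are given as fragments per 1000000 in-peak fragments (FPM), and ratios as log2 of aged over young. Fragments shorter than the DNA around a nucleosome made up 59.8% of the young and 55.0% of the aged fragments, and 26 barcodes were shared by the kept cells of both libraries. Fewer cells with an open site and fewer fragments per open site cannot be told apart in these summed values.

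The promoters, taken as the annotated transcription start site (TSS) with 1 kb on either side, covered a wide range of accessibility. Ifngr1, the ligand-binding chain of the interferon gamma receptor, had the most accessible promoter of the 40 genes by this measure. It had 66.3 FPM in young and 61.5 FPM in aged HSCs (95th percentile of all protein-coding promoters). A start inside Csf2ra, described below, was more accessible. Il3ra, the alpha chain of the IL-3 receptor, had 61.1 and 54.9 FPM, and Ifnar1, a chain of the type I interferon receptor, 55.3 and 53.7 FPM. At the other end, 4 promoters (Il1r2, Il1rl1, Il2rb and Il11ra1) held fewer than 50 fragments in both libraries together. These were left out of the counts and medians of promoter ratios. Il2ra, Csf1r and Lifr lay at or under 1.63 FPM in both libraries. In all, 24 of the 40 genes lay above the median protein-coding promoter.

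**Figure D1:**
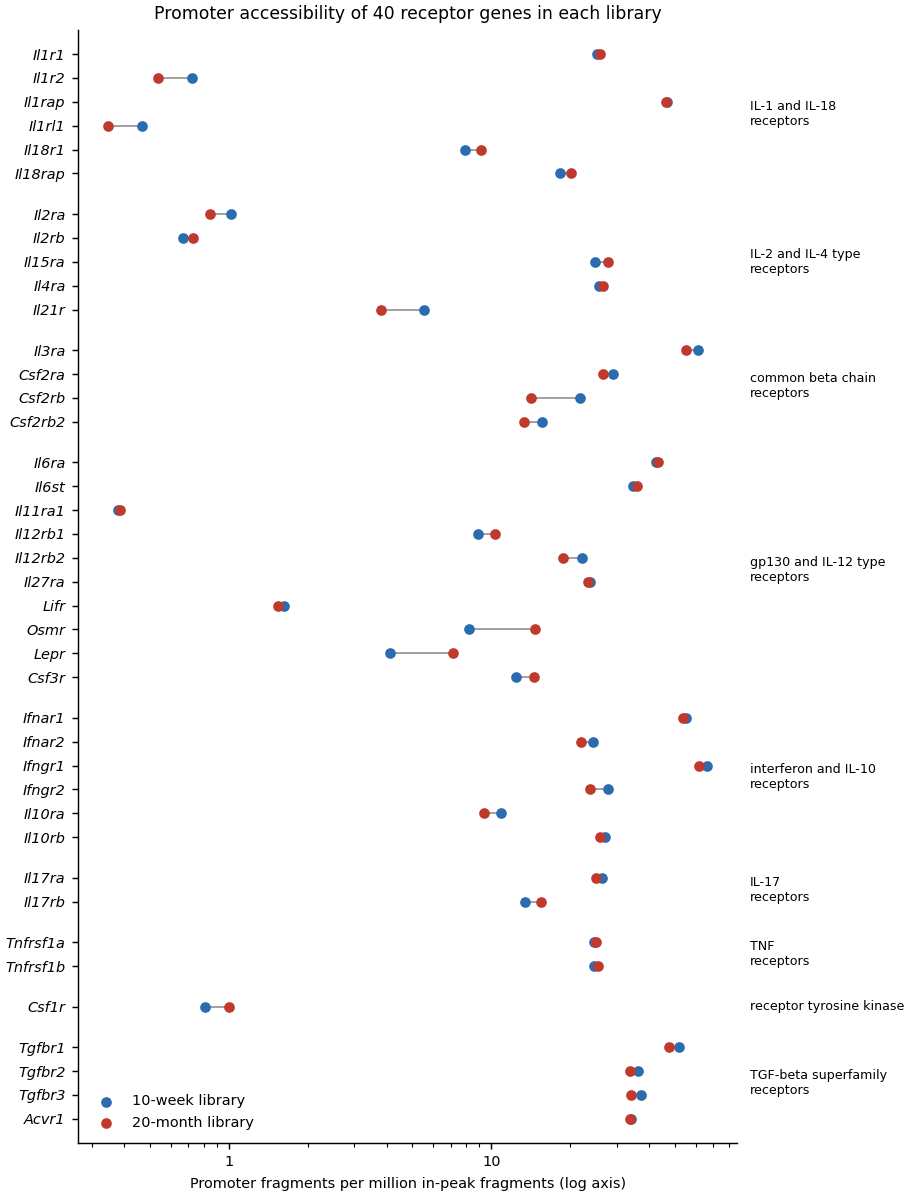
Promoter accessibility of the 40 receptor genes by family, as fragments per 1000000 in-peak fragments on a log axis, with 1 blue point for the 10-week and 1 red point for the 20-month library. The points of most genes lie close together, and those of Osmr, Lepr, Csf2rb and Il21r lie apart.

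Of the 36 promoters with enough fragments, 2 were at least 25% higher in aged HSCs (Osmr and Lepr) and 2 at least 20% lower (Csf2rb and Il21r), which is the same fold either way. Among all 15978 protein-coding promoters held to the same limits, 9.51% were higher and 3.96% lower by that much. The median log2 ratio was -0.03 over the receptor promoters (95% order-statistic interval over genes, -0.12 to 0.04) and -0.05 over all promoters. That interval treats the genes as independent and does not cover variation between mice, so it is no test of a difference between ages. For 31 of the 36 receptor promoters the log2 ratio lay within 0.3 of 0.

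How often a promoter passes these limits depended on its level. Among all promoters under 5 FPM on average, the class of Il21r, 31.0% were higher and 19.9% lower in aged HSCs. Between 5 and 10 FPM, the class of Lepr, 26.8% were higher and 5.10% lower, and between 10 and 20 FPM, the class of Osmr and Csf2rb, 13.4% were higher and 2.48% lower. Between 20 and 40 FPM the shares were 1.40% and 0.699%. None of the 22 receptor promoters at or above 20 FPM on average passed in either direction. Of the 14 below 20 FPM, Osmr and Lepr were higher and Csf2rb and Il21r lower.

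Over gene bodies with 20 kb on either side the same 2 genes were higher as at the promoter, while Csf2rb and Il21r, with log2 ratios of -0.28 and -0.13, did not pass as lower. Each body window contains the promoter window of its gene, so the body values are no separate reading of the promoter differences. All 40 genes had enough fragments, Osmr and Lepr were at least 25% higher in aged HSCs and no gene was 20% lower, compared with 10.7% higher and 0.839% lower among 21207 protein-coding genes. These shares also depended on the level, and 38.8% of gene bodies under 20 FPM on average, the class of Lepr, were higher, compared with 4.56% of those between 50 and 100 FPM, the class of Osmr. With levels scaled to all fragments in place of in-peak fragments, Osmr and Lepr were still the 2 higher genes and 2 (Ifnar2 and Il1r2) were lower. The median log2 ratio was -0.05 over the receptor genes and -0.02 over all genes. Ifnar2, Il1r2 and Csf2rb lay just inside the limit, at -0.31, -0.30 and -0.28. These windows overlap for 7 pairs of receptor genes that are neighbours on a chromosome, among them Il4ra and Il21r, Csf2rb and Csf2rb2, and Ifnar2 and Il10rb, and for 17 genes they also hold the start of another protein-coding gene.

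**Figure D2:**
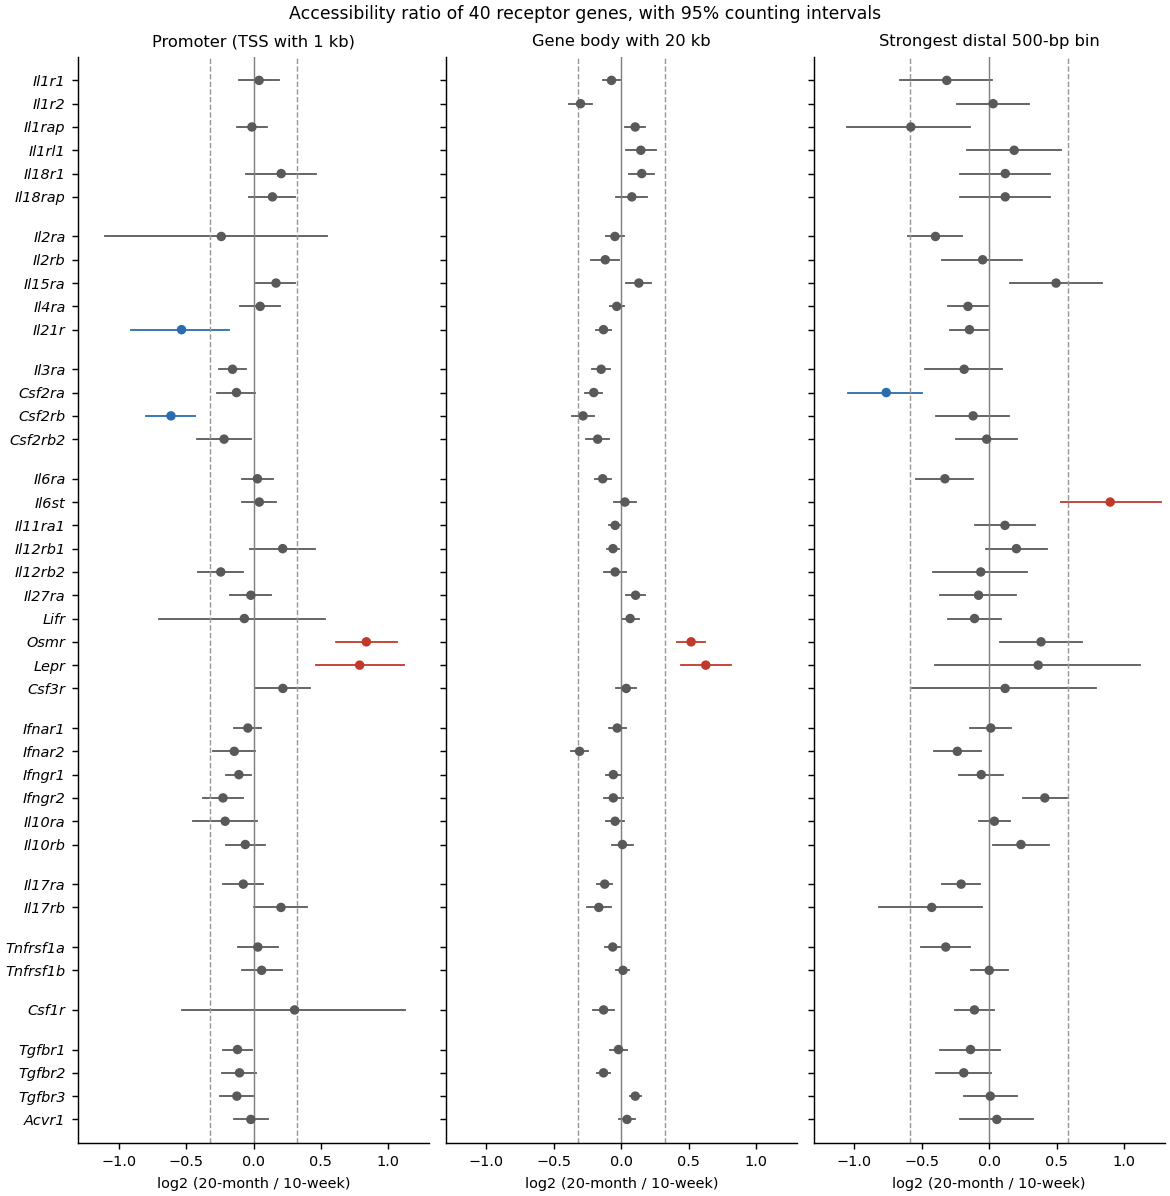
log2 ratios of 20-month over 10-week HSCs for the promoter, the gene body with 20 kb and the strongest distal 500-bp bin of each receptor gene with at least 50 fragments, with lines for the 95% counting interval and dashed lines at 25% higher and 20% lower (promoter, body) or 1.5-fold (bin). Osmr and Lepr stand to the right in promoter and body, Csf2rb and Il21r to the left in the promoter, Il6st to the right and Csf2ra to the left in the distal bin.

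The receptors that use gp130 or resemble it formed the largest family, with 10 genes, and held both promoters that were higher in aged HSCs. Osmr encodes the chain that pairs with gp130 to bind oncostatin M. Its gene lies at chr15:6813577-6874969 (mm10) on the minus strand. The promoter held 282 fragments (8.19 FPM) in young and 380 fragments (14.6 FPM) in aged HSCs, a log2 ratio of 0.84 (0.61 to 1.07). The peak at this promoter was 1918 bp wide, was centred 821 bp inside the gene and went from 14.5 to 24.1 FPM, with a ratio of 0.73 (0.56 to 0.91). Over the gene body the levels were 43.7 and 62.6 FPM (0.52, 0.41 to 0.62), and fragments of this stretch outside of peaks differed less, with a log2 ratio of 0.35, than those in peaks, with 0.61.

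Lepr encodes the leptin receptor, which in marrow is best known as a mark of stromal cells, and lies at chr4:101717404-101815352 on the plus strand. Its promoter was less accessible, with 142 fragments (4.12 FPM) in young and 185 fragments (7.12 FPM) in aged HSCs, a log2 ratio of 0.79 (0.47 to 1.11). Over the gene body it had 12.8 and 19.7 FPM (0.63, 0.44 to 0.81), the lowest level of the 40 gene bodies in both libraries. Among all gene bodies under 20 FPM the median log2 ratio was 0.23. Outside of peaks the log2 ratio over the Lepr body was 0.55.

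The other chains of this family differed less. Il6ra, the binding chain of the IL-6 receptor and the most accessible of the family, had 42.4 FPM in young and 43.2 FPM in aged HSCs, and Il6st, which encodes gp130 itself, had 34.7 and 35.7 FPM. Csf3r, the receptor of granulocyte colony stimulating factor, had 12.5 and 14.5 FPM (0.22, 0.01 to 0.42), and Il12rb2, a chain of the IL-12 receptor, had 22.2 and 18.8 FPM (-0.24, -0.41 to -0.08). Il27ra and Il12rb1 had log2 ratios of -0.02 and 0.22. The annotated 5' ends of Lifr and Il11ra1 were nearly closed, and the most accessible of their annotated starts, 38958 and 60207 bp downstream, had 11.1 and 13.1 FPM for Lifr and 28.6 and 25.8 FPM for Il11ra1. Il11ra1 has near-identical copies, so its values are uncertain.

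The 4 promoters past the limits are shown by the 200 bases before their TSS, read from the GRCm38 genome in the direction of the gene. These bases are only a part of the promoter windows. The peaks there were centred further in, 821 bp (Osmr), 367 bp (Lepr), 267 bp (Csf2rb) and 38 bp (Il21r) inside the gene. Capitals mark matches to 14 fixed motifs searched on both strands (all are listed with the distal peaks). Osmr is shown from chr15:6874970-6875169 (minus strand), Lepr from chr4:101717204-101717403, Csf2rb from chr15:78325552-78325751 and Il21r from chr7:125603229-125603428 (plus strand).
Osmr: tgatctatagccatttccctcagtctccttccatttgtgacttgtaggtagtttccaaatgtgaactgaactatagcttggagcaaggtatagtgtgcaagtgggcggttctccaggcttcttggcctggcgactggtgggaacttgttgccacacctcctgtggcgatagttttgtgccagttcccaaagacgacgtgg
Lepr: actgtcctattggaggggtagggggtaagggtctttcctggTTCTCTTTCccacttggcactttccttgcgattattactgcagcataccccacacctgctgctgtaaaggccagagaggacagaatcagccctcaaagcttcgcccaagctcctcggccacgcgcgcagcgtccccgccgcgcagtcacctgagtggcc
Csf2rb: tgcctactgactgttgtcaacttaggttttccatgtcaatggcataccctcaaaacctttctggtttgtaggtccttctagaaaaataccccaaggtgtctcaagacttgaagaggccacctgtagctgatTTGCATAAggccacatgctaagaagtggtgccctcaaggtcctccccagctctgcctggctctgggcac
Il21r: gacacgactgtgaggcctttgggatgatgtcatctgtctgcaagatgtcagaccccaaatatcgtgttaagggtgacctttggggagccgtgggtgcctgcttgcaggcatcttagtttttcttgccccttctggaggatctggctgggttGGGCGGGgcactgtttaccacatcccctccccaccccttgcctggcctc
The Osmr window held none of the motifs, the Lepr window held 1 ISRE pattern (GAAANNGAA), the Csf2rb window 1 CEBP motif (TTGCNNAA) and the Il21r window 1 KLF/SP motif (GGGCGGG). The Lepr pattern starts at base 42 of its window and lies outside the Lepr peak, which begins at chr4:101717337. Over the same window of all 21755 protein-coding genes, 5.56% held this ISRE pattern, 7.23% the CEBP pattern and 27.4% the KLF/SP pattern.

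**Figure D3:**
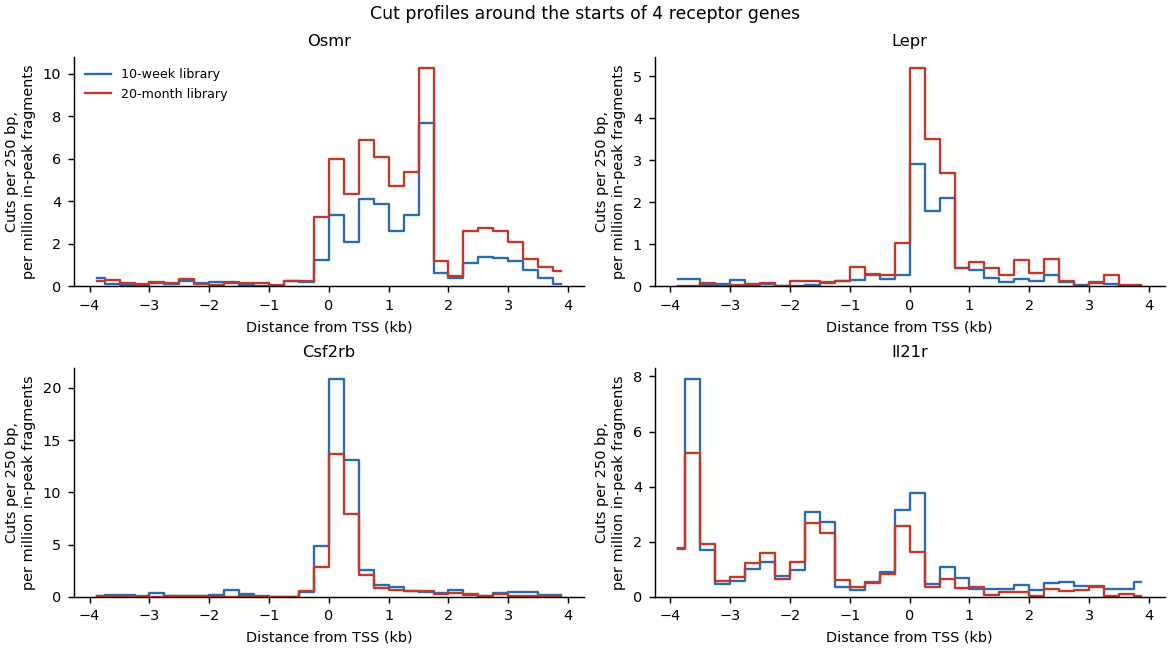
Transposase cuts per 250 bp and per 1000000 in-peak fragments within 4 kb of the annotated TSS of Osmr, Lepr, Csf2rb and Il21r, with the 10-week library in blue and the 20-month library in red. The red line lies above the blue line across the open stretch of Osmr and over the start of Lepr, and below it over the starts of Csf2rb and Il21r.

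Of the chains that share or resemble the common beta chain, Csf2rb was past the limit at the promoter and lower in aged HSCs, and Il3ra, Csf2ra and Csf2rb2 were not past it. Csf2rb encodes the common beta chain of the IL-3, IL-5 and GM-CSF receptors and lies at chr15:78325752-78353847. Its promoter held 747 fragments (21.7 FPM) in young and 368 fragments (14.2 FPM) in aged HSCs, a log2 ratio of -0.61 (-0.80 to -0.43). Its neighbour Csf2rb2, the IL-3 specific beta chain, had 15.6 and 13.4 FPM (-0.22, -0.42 to -0.02). Both genes are near-identical in sequence, so fragments could be split between them and their separate values are uncertain. Il3ra had a log2 ratio of -0.16 (-0.25 to -0.06), and all 4 gene bodies of the family had log2 ratios between -0.28 and -0.15.

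Csf2ra, the alpha chain of the GM-CSF receptor, held its most accessible stretch not at the annotated 5' end (29.0 and 26.5 FPM) but around a start 1746 bp inside the gene, with 114 FPM in young and 103 FPM in aged HSCs (-0.16). Its strongest distal 500-bp bin, which excludes all starts, lay 16322 bp upstream between genes. There 366 young fragments (10.6 FPM) stood against 162 aged fragments (6.24 FPM), a log2 ratio of -0.76 (-1.04 to -0.50). This was the only strongest bin of the 40 that was at least 1.5-fold lower. In cells thinned to 3000 in-peak fragments each its log2 ratio was -0.58, which no longer passed, and with bins up to 50 kb away another bin took its place.

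The interleukin 2 and interleukin 4 type receptors held 1 promoter past the limits. Il21r, which pairs with the common gamma chain to bind IL-21, lies at chr7:125603429-125633570 next to Il4ra. Its promoter held 191 fragments (5.54 FPM) in young and 99 fragments (3.81 FPM) in aged HSCs, a log2 ratio of -0.53 (-0.91 to -0.18). In cells thinned to 3000 in-peak fragments each the ratio was -0.32, which no longer passed. Il15ra, the binding chain of the IL-15 receptor and the most accessible of the family on average, had 24.7 and 27.7 FPM (0.17, 0.02 to 0.31), and Il4ra had 25.7 and 26.6 FPM (0.05, -0.10 to 0.19). Il2ra and Il2rb were close to closed at the promoter, at 1.016 FPM or less. The body window of Il2ra was open all the same, at 118 and 114 FPM, but it overlaps that of Il15ra and holds the Il15ra start. Its strongest bin lay 10944 bp into Il2ra, at 16.5 and 12.5 FPM (-0.40, -0.60 to -0.20).

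Of the interleukin 1 and interleukin 18 receptors, none passed the limits at the promoter. Il1rap, the accessory chain shared by several receptors of this family, had 46.8 FPM in young and 46.4 FPM in aged HSCs, and Il1r1, the signalling IL-1 receptor, had 25.2 and 25.9 FPM. Il18r1 and Il18rap, the chains of the IL-18 receptor, had log2 ratios of 0.20 (-0.05 to 0.46) and 0.14 (-0.03 to 0.31). Il1rl1, the IL-33 receptor, held 25 promoter fragments in both libraries together. Il1r2 encodes a decoy that binds IL-1 without signalling. Its annotated 5' end was closed, and a start 10713 bp further in had 24.5 FPM in young and 19.6 FPM in aged HSCs (-0.32), with -0.30 (-0.39 to -0.22) over the gene body.

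The interferon and interleukin 10 receptors all had promoter log2 ratios below 0, from -0.04 for Ifnar1 to -0.23 for Ifngr2 (interval -0.38 to -0.08). Ifngr1 had a log2 ratio of -0.11 (-0.20 to -0.02), and Ifnar2, Il10ra and Il10rb had -0.14, -0.21 and -0.06. The intervals of Ifnar1, Ifnar2, Il10ra and Il10rb included 0. Among all protein-coding promoters 36.0% had a ratio above 0, and among the 36 receptor promoters 15 did. The median over all promoters was 0.05 between 10 and 20 FPM, the class of Il10ra. It was -0.06 between 20 and 40 FPM and -0.09 at or above 40 FPM, the classes of the other genes here. Fragments at gene starts made up 28.2% of all young and 26.6% of all aged fragments. Ifnar2, Il10rb, Ifnar1 and Ifngr2 lie next to each other on chromosome 16.

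The TGF-beta superfamily receptors were accessible at the promoter in both libraries and differed little. Tgfbr1, the type I TGF-beta receptor kinase, had 51.7 FPM in young and 47.6 FPM in aged HSCs (-0.12, -0.22 to -0.01). Tgfbr2, the type II kinase, had 36.2 and 33.7 FPM, the co-receptor Tgfbr3 had 37.0 and 34.0 FPM, and Acvr1, a type I receptor for bone morphogenetic proteins, had 34.1 and 33.6 FPM. The promoter window of Acvr1 also holds the start of Upp2. The promoters of the IL-17 and TNF receptor genes were also accessible in both libraries. Il17ra had 26.5 and 25.1 FPM and Il17rb, whose window holds the start of Chdh, 13.4 and 15.4 FPM (0.20, 0.01 to 0.40), while the TNF receptor genes Tnfrsf1a and Tnfrsf1b each lay between 24.5 and 25.6 FPM in both libraries. Csf1r, the receptor tyrosine kinase for macrophage colony stimulating factor, held 28 and 26 promoter fragments (0.30, -0.53 to 1.12) and was nearly closed at its annotated 5' end. At its most accessible annotated start, 5254 bp downstream, it held 124 fragments (3.60 FPM) in young and 53 fragments (2.04 FPM) in aged HSCs. The log2 ratio there was -0.80 (-1.31 to -0.34), at a level under 5 FPM, where 19.9% of all promoters were lower. The ratio at the annotated 5' end carried no clear direction, as its interval included 0 and its sign changed under some other settings.

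Beyond the promoters, the strongest distal 500-bp bin of each gene was set by the mean of both libraries. Il6st had the only one at least 1.5-fold higher in aged HSCs, at chr13:112457001-112457500, 6819 bp upstream of the gene, with 108 young fragments (3.14 FPM) and 152 aged fragments (5.85 FPM), a log2 ratio of 0.90 (0.53 to 1.27). With bins up to 50 kb away another bin, at -0.09, took its place. Among 18117 protein-coding genes, 6.29% had a strongest bin that much higher and 2.99% one that much lower. Under 5 FPM on average, the class of the Il6st bin, the shares were 14.0% and 7.15%. Between 5 and 10 FPM, the class of the Csf2ra bin, they were 4.53% and 1.85%. Il1rap, at -0.58, lay just inside the limit. The median log2 ratio over the 40 bins was -0.05, compared with -0.03 over all genes. Il18r1 and Il18rap share their strongest bin.

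Peaks called on these cells showed more of the regulatory surroundings. Near the 40 genes, 408 distal peaks lay over 1 kb from every protein-coding start, 20 of them near more than 1 receptor gene, and 344 held at least 50 fragments. Of these, 25 were at least 1.5-fold higher in aged HSCs and 32 at least 1.5-fold lower, that is 7.27% and 9.30%, compared with 13.3% and 7.69% of 76898 distal peaks near all protein-coding genes. Among all these distal peaks the shares fell with level, from 20.8% and 14.6% under 2 FPM to 2.55% and 0.928% at or above 10 FPM. The median log2 ratio was -0.07 over the receptor peaks (order-statistic interval over peaks, -0.12 to -0.03) and 0.02 over all distal peaks. This interval treats the peaks as independent, although many share a gene, and it does not cover variation between mice. It is therefore no test of a difference between ages. Under the other settings run, the median over the receptor peaks ranged from -0.10 to -0.02. Of the 408 peaks, 236 lay in introns, 133 between genes and 39 in exons.

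**Figure D4:**
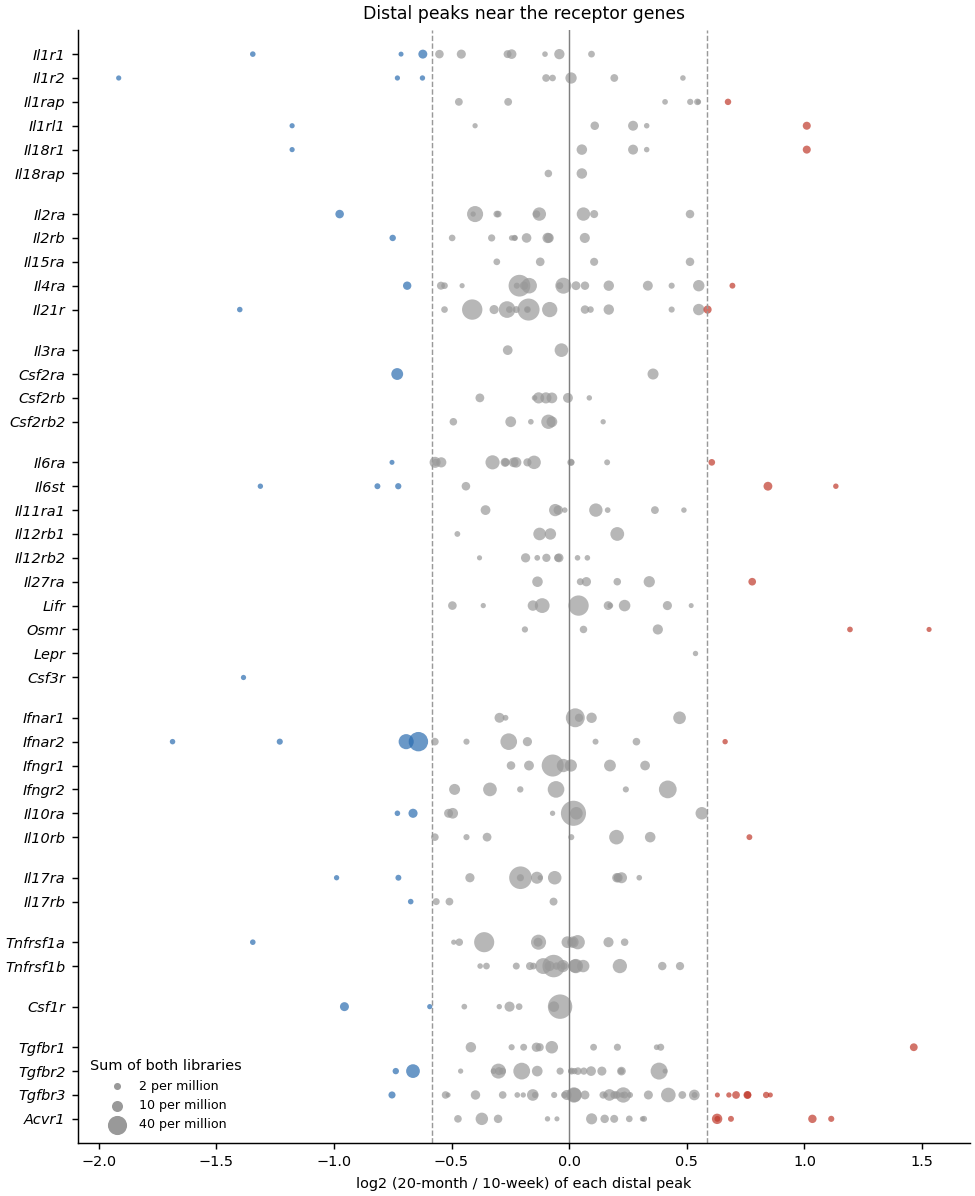
log2 ratio of 20-month over 10-week HSCs for each distal peak with at least 50 fragments, by receptor gene. The area of a point grows with its level, red points are at least 1.5-fold higher and blue points at least 1.5-fold lower, and dashed lines mark 1.5-fold. The large points of Ifnar2, Tgfbr2 and Csf2ra lie on the blue side, and the red points of Acvr1 and Tgfbr3 are mostly small.

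Ifnar2, a chain of the type I interferon receptor, had the 2 most accessible of the lower peaks. The one 5740 bp upstream held 1064 fragments (30.9 FPM) in young and 514 fragments (19.8 FPM) in aged HSCs, a log2 ratio of -0.64 (-0.80 to -0.49). The one 17397 bp upstream held 640 fragments (18.6 FPM) and 298 fragments (11.5 FPM), a log2 ratio of -0.69 (-0.90 to -0.49). Both levels were of the order of the promoter of the gene itself, which had 24.3 and 22.0 FPM. Summed over the 11 measured distal peaks of Ifnar2, accessibility went from 90.1 to 64.7 FPM (-0.48, -0.56 to -0.39). The summed distal peaks of its neighbours Il10rb, Ifnar1 and Ifngr2 had log2 ratios of 0.06, 0.08 and -0.00054, so the difference lay at the Ifnar2 end of this cluster of genes.

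Single peaks of other receptors were also lower. Tgfbr2 had an intronic peak 14260 bp into the gene with 15.04 FPM in young and 9.47 FPM in aged HSCs (-0.66, -0.89 to -0.45), and Csf2ra the upstream peak of its strongest bin with 11.1 and 6.66 FPM (-0.73, -1.003 to -0.47). Il10ra, 12006 bp upstream, and Il1r1, 46107 bp into the gene, had log2 ratios of -0.66 and -0.62. The lower peaks also held 1 at the 3' end of Csf1r, where it overlaps exons of Csf1r and Hmgxb3, with 6.24 and 3.20 FPM (-0.96), and 1 located 5587 bp upstream of Il2ra, with 5.57 and 2.81 FPM (-0.98, -1.40 to -0.59).

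The TGF-beta superfamily receptors held 13 of the 25 higher peaks and 3 of the lower ones. They also had the most measured peaks of any family, 84, with a median log2 ratio of 0.09. Among all distal peaks 13.3% were higher and 7.69% lower, so the higher peaks of this family were near the share over all genes. Tgfbr3, a long gene with 36 measured distal peaks, had 7 of them higher and 1 lower, and Acvr1 had 5 of 16 higher and none lower. In Acvr1 the peak 37216 bp into the gene went from 5.23 to 8.09 FPM (0.63, 0.34 to 0.93), and a peak 7059 bp upstream, in an intron of Upp2, from 2.64 to 5.43 FPM (1.03, 0.65 to 1.44). Tgfbr1 had a peak 21667 bp into the gene that held 61 fragments (1.77 FPM) in young and 128 fragments (4.93 FPM) in aged HSCs, a log2 ratio of 1.46 (1.03 to 1.94). In Tgfbr3, peaks 7114 and 51386 bp into the gene had log2 ratios of 0.76 and 0.71. Most of these peaks were of low level, at which distal peaks of all genes also leaned to aged HSCs: between 2 and 5 FPM, 13.7% were higher and 6.33% lower. Between 5 and 10 FPM, the class of the first Acvr1 peak, 6.77% were higher and 2.45% lower.

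Other higher peaks stood near interleukin receptors. The peak upstream of Il6st that contains its strongest bin had 3.25 FPM in young and 5.85 FPM in aged HSCs (0.84, 0.49 to 1.21), while 3 of the 6 measured peaks of Il6st were lower. A peak in an intron of Il18r1, 4605 bp from its start and within 20 kb of Il1rl1, went from 2.38 to 4.81 FPM (1.01, 0.60 to 1.44). Il21r, lower at its promoter, had a peak 14759 bp into the gene with 3.02 and 4.54 FPM (0.59, 0.20 to 0.98). Osmr had 2 small peaks 2477 and 2798 bp into the gene with log2 ratios of 1.19 and 1.53. They are not among the 8 higher peaks with the most fragments, and small distal peaks of all genes also passed more often, as given above.

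**Figure D5:**
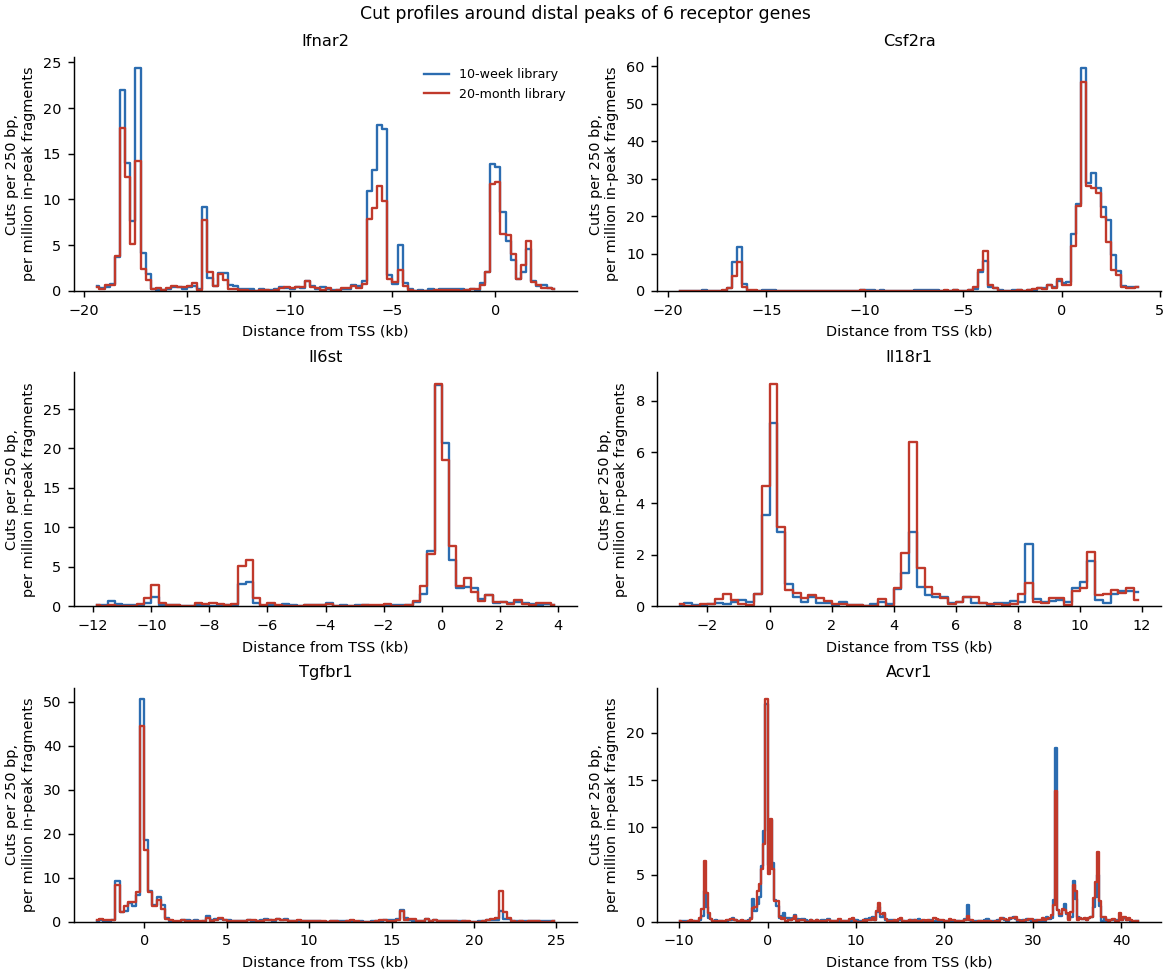
Transposase cuts per 250 bp and per 1000000 in-peak fragments against distance from the annotated TSS for 6 receptor genes, with the 10-week library in blue and the 20-month library in red. Blue exceeds red at the peaks 5740 and 17397 bp upstream of Ifnar2 and 16447 bp upstream of Csf2ra. Red exceeds blue upstream of Il6st, 4605 bp inside Il18r1, 21667 bp inside Tgfbr1, and 7059 bp upstream and 37216 bp inside of Acvr1.

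The central 200 bases of 7 of these peaks are shown on the plus strand of GRCm38, chosen after their values were seen to show elements of both directions. Capitals mark motif matches. They lie at chr16:91366943-91367142 and chr16:91355286-91355485 (Ifnar2), chr19:61244776-61244975 (Csf2ra), chr13:112457262-112457461 (Il6st), chr4:47374789-47374988 (Tgfbr1), chr1:40470057-40470256 (Il18r1) and chr2:58529841-58530040 (Acvr1).
Ifnar2, near peak, lower in aged: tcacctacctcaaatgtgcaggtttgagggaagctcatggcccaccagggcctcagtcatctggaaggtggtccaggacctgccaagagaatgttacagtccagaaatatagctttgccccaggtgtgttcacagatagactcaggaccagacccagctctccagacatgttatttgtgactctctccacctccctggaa
Ifnar2, far peak, lower in aged: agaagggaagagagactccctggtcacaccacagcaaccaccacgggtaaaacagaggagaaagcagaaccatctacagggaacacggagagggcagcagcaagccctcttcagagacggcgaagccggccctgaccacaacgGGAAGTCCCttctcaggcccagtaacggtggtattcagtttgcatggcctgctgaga
Csf2ra, lower in aged: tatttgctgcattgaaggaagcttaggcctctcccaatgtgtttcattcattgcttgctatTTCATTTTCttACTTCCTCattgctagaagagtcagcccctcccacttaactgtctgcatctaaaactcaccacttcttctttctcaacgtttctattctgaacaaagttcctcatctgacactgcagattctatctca
Il6st, higher in aged: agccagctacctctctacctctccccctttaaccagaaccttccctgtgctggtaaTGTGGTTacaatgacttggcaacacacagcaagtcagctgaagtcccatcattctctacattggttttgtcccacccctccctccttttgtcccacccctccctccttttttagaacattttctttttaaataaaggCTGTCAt
Tgfbr1, higher in aged: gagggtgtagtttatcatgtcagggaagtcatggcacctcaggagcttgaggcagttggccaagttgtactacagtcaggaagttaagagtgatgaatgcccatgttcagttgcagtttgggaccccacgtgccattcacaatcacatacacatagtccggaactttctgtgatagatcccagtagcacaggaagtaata
Il18r1, higher in aged: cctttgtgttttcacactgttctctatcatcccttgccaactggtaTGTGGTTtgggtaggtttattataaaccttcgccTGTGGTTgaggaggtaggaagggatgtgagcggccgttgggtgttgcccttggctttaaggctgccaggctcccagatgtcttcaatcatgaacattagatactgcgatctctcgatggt
Acvr1, higher in aged: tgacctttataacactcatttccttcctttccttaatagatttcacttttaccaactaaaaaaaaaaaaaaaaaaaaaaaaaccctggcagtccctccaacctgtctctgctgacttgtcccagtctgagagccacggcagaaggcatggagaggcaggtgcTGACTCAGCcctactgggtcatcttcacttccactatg
The far Ifnar2 peak held a NF-kB motif, the Csf2ra peak an ISRE pattern and a PU.1 motif, the Il18r1 peak 2 RUNX motifs, the Il6st peak a RUNX and a MEIS motif, and the Acvr1 peak a CNC motif with the AP-1 motif it contains. The near Ifnar2 peak and the Tgfbr1 peak held none.

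The motifs were the letters TGANTCA for AP-1, TGACTCAGC for CNC factors (every match is also an AP-1 match), TGACGTCA for ATF, TTCNNNGAA for STAT, GAAANNGAA for ISRE, GGGANTTCC for NF-kB, TGTGGTT for RUNX, AGATAA for GATA, GAGGAAGT for PU.1, CCGGAAGT for other ETS factors, GTCTAGAC for SMAD, TTGCNNAA for CEBP, TGACAG for MEIS and GGGCGGG for KLF/SP, on both strands. Over the 344 receptor peaks the STAT pattern stood in 7.27% and over all 76898 distal peaks in 6.30%. The AP-1 pattern stood in 27 receptor peaks, 7.85% compared with 9.61% of all, in 1 of the 25 higher and in none of the 32 lower ones. Of all distal peaks that were 1.5-fold higher, 16.0% held it, and of those 1.5-fold lower 6.45%. RUNX motifs stood in 7 of the 25 higher and 4 of the 32 lower receptor peaks, and in 11.9% of all receptor peaks, 11.8% of all higher and 10.9% of all lower distal peaks. ISRE patterns stood in 2 of the higher and 7 of the lower receptor peaks, and in 38 of all 344 receptor peaks, 10.9% of all higher and 7.90% of all lower distal peaks. NF-kB motifs stood in none of the higher and 4 of the lower receptor peaks, and in 2.03% of all receptor peaks, 1.05% of all higher and 1.56% of all lower distal peaks. The SMAD palindrome stood in none of the receptor peaks and in 0.186% of all. These counts are small, a match is not a bound site, and no difference between them was tested.

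The shares of cells with a fragment gave the same order as the sums for the 4 promoters past the limits. They were counted from the same fragments, so they are no separate support for the differences. Each cell was thinned to 3000 in-peak fragments, which kept 4784 young and 3268 aged cells. A fragment at the Osmr promoter was then found in 2.78% of young cells (2.33 to 3.29%) and 4.47% of aged cells (3.79 to 5.23%), and one at the Lepr promoter in 1.13% (0.849 to 1.47%) and 2.02% (1.57 to 2.56%). For Csf2rb the share was 6.71% (6.02 to 7.46%) in young and 4.22% (3.56 to 4.97%) in aged cells, and for Il21r 1.53% and 1.19%, with intervals that overlap (1.20 to 1.91% and 0.850 to 1.63%). The nearly closed promoter of Il1rl1 gave 0.0627% and 0.0612%. Without thinning the shares were 5.48% and 10.5% for Osmr, 2.70% and 5.20% for Lepr, 13.8% and 9.96% for Csf2rb, and 3.68% and 2.82% for Il21r. Over all 40 promoters together, thinned young cells held a mean of 2.74 fragments and thinned aged cells 2.58, while without thinning the order was the other way round, with 6.37 and 6.70.

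Base composition went with the level of these promoters. Around the most accessible start of each gene, 18 of the 40 promoters were CpG-rich (GC content over 50% and observed over expected CpG over 0.6 within 500 bp), 45.0% compared with 48.4% of all protein-coding genes. Their median level was 35.4 FPM, and that of the other 22 was 16.5 FPM, compared with 35.5 and 1.37 FPM over all genes of these classes. The median log2 ratio was -0.06 in the CpG-rich and -0.02 in the other receptor promoters.

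The wider pathways were described by 5 lists of other genes at the same limits, which 9.51% of all promoters passed as higher and 3.96% as lower. More accessible promoters passed less often. Between 20 and 40 FPM, the class of Bmpr1a, Flt3 and Il7, 1.40% were higher and 0.699% lower. At or above 40 FPM, the class of Socs3, the shares were 0.139% and 0.209%. Less accessible promoters passed far more often. Between 10 and 20 FPM, the class of Ifnlr1, 13.4% were higher. Between 5 and 10 FPM, the class of Il13ra1 and Csf2, 26.8% were higher, and under 5 FPM, the class of Il4, 19.9% were lower. Of 21 measured JAK-STAT transducers and inhibitors, 1 was higher and none lower: Socs3, a feedback inhibitor of gp130 signalling, with 44.6 FPM in young and 60.6 FPM in aged HSCs (0.44, 0.34 to 0.54). Of 25 TGF-beta and BMP transducers, 1 was higher and none lower: Bmpr1a, a type I receptor for bone morphogenetic proteins, with 18.2 and 30.4 FPM (0.74, 0.58 to 0.89). None of the 14 measured adaptors of IL-1 and TNF receptors passed. Of 21 other cytokine receptors 3 were higher and 2 lower. Flt3, the receptor of a lymphoid growth factor, had 34.0 and 25.6 FPM (-0.41, -0.55 to -0.27), and cells with its protein on the surface were sorted out of both samples. Ifnlr1 had a log2 ratio of 0.51 (0.30 to 0.72) and Il13ra1 of 0.41 (0.10 to 0.72). Of 21 cytokine ligands 3 were higher and 1 lower. Il7 had 0.33 (0.20 to 0.46), Csf2 0.40 (0.15 to 0.65) and Il4 -0.41 (-0.82 to -0.01). The median log2 ratios of the 5 lists ran from -0.07 to 0.03, beside -0.05 over all promoters.

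The sorted cells were checked by the promoters of marker genes. The HSC markers Hlf, Meis1 and Fgd5 had 35.8, 41.5 and 22.6 FPM in young HSCs and 33.9, 43.2 and 21.9 FPM in aged HSCs, and Mecom was nearly closed at its annotated 5' end in both. The summed promoters had 145.6 and 147.3 FPM for 8 HSC markers, 132.7 and 120.7 for 6 of megakaryocytes, 48.8 and 46.4 for 7 of erythroid cells, 35.3 and 35.5 for 9 of granulocytes and monocytes, 62.8 and 61.9 for 6 of B cells, 8.53 and 6.51 for 7 of T and NK cells and 28.4 and 34.3 for 6 of mast cells and basophils. The log2 ratios of these sums were -0.14 (-0.20 to -0.07) for megakaryocyte markers, -0.39 (-0.67 to -0.11) for T and NK cell markers and 0.27 (0.14 to 0.40) for mast cell and basophil markers, and the intervals of the other lists included 0. Of the megakaryocyte markers only Itga2b passed the limits, with 31.0 and 24.3 FPM, and the others had log2 ratios between -0.11 and 0.12. In the T and NK cell list only Cd4 and Klrb1c held at least 50 fragments. Cd4 had 2.12 and 0.732 FPM, and Klrb1c had a log2 ratio of 0.14. The mast cell and basophil sum rested mostly on Gata2, with 656 young and 572 aged fragments, and Cpa3, with 250 and 256. Each other gene of that list held 33 fragments or fewer in either library. Whether its ratio reflects mast cells or basophils among the sorted cells was not tested. Mpo and Elane had 2.87 FPM or less and Cd3e 0.842 FPM or less in both libraries. Other markers outside the HSC list were open in both. Prtn3 had 12.3 and 12.6 FPM, Vpreb1 32.0 and 29.6, Pf4 41.8 and 39.4 and Epor 26.3 and 25.4. The HSC marker Ly6a had 3.02 and 2.85 FPM, so promoter levels of the HSC list and the other lists overlapped. Of the 32 markers with enough fragments, 4 were past the limits as higher in aged HSCs (Slamf1, Hbb-bt, Elane and Cpa3) and 3 as lower (Itga2b, Mpo and Cd4), beside 9.51% and 3.96% of all promoters. Hbb-bt, Elane, Mpo and Cd4 lay under 5 FPM, where 31.0% of all promoters were higher and 19.9% lower. Whether these differences have a part in the ratios of the receptor genes was not tested.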

How the data were processed

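A total of 2 libraries of sorted mouse HSCs, 1 per age as the sample labels give it, were analysed. The authors aligned reads to mm10 with Cell Ranger ATAC, and their notes also name Signac. The deposited lists give unique fragments with their barcode, and the deposited barcode tables hold counts of read pairs and fragments per barcode, without normalization, and mark the barcodes called as cells. Called cells with 3000 to 20000 in-peak fragments per the authors' counts were kept, and doublets were not called.

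Peaks were called on cut sites in windows of 151 bp against the genome or 10000 bp around (Poisson, q under 0.001) and merged over both libraries. Each fragment was counted at most once per region, where at least 1 of its ends fell inside. GENCODE M21 starts and the GRCm38 sequence, the same build as mm10, were used. Ratios have a pseudocount of 1 fragment and exact binomial intervals, shares of cells have exact binomial intervals, and both cover counting error only. Regions needed 50 fragments in both libraries together. Promoters and gene bodies were counted as different from 25% higher or 20% lower, distal bins (500 bp, over 1 kb from protein-coding starts, within 20 kb of the gene) and peaks from 1.5-fold. No p-value is given. Genes named with values are, in each family, the most accessible promoter and every gene past the fold, of distal peaks the 8 with most fragments in each direction, and of the other lists the 3 with most fragments past the fold; further genes complete their family or serve as a check of cell type and were named after their values were seen. The small distal peaks of Osmr were named outside this rule. The receptor genes and the lists were chosen with earlier results of these data known. The counting and the ratio were tested on simulated data. Analyses used Python 3.11.15, numpy 2.4.6, scipy 1.17.1 and pandas 2.3.3. One gene of the B cell marker list is not reported here and was left out of that list's sums.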

Additional observations from a re-analysis of the deposited data

How the results depend on the processing

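With 1 library per age no left-out library and no test between ages could be had, and the depth limits single promoters: those under 50 fragments carry no direction. No paired analysis was possible because each age has 1 library. Of 327 values recomputed under other settings, 17 changed sign, and 2 of these had been past the limit: with bins up to 50 kb away, the strongest bins of Csf2ra and Il6st were other bins, with log2 ratios of 0.0033 and -0.088, and 0 bins were then higher and 0 lower. The other 15 had not been past the limit as reported, namely 3 medians and the promoters of Csf1r, Il6ra, Il1rap and Tnfrsf1b. The Csf1r promoter ranged from -0.80, at its most accessible start, to 0.35. Osmr and Lepr were higher at promoter and gene body under every setting run, from 0.66 to 1.016 and from 0.48 to 0.93 at the promoter, and Csf2rb was lower at the promoter, from -0.68 to -0.56, while Il21r ranged from -0.63 to -0.32. The body windows contain the promoter windows, so the values of promoter and body share fragments. Lower promoters numbered 5 with sub-nucleosomal fragments alone and 4 with no minimum of fragments. Lower gene bodies numbered 2 when scaled to all fragments (median -0.081), 1 in cells up to 15000 in-peak fragments, 1 in thinned cells, 3 with sub-nucleosomal fragments alone and 1 with 2 kb on either side. Lower strongest bins numbered 2 when scaled to all fragments, in cells up to 15000, in thinned cells and with each fragment end counted. For distal peaks, the median was -0.021 when scaled to fragments at gene starts, 21 were lower in thinned cells, 43 were higher and 53 lower with no minimum, 49 were lower with each end counted, and 43 were higher and 55 lower within 50 kb. Fewer fragments, more peaks or lower limits enter some of these by construction, and otherwise the cause was not tested.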
